A study of Rattus norvegicus with 32 samples.

Results

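Grifin, Paqr3, Ptgis, Kif13a, Azi2 and Tmtc3 are 6 genes whose signals in the mammary gland of the rat strain F344 lay apart from those of the other 4 inbred strains studied. Each has 1 probe set on the array, so they make up 6 of 8799 probe sets and 6 of 4737 genes. They were chosen by their F344 signals set against those of Cop, ACI, BUF/N and WF, in the same arrays that are described here. Differences between F344 and these strains are therefore given as a description without a test. Signals of the F1 hybrid were not compared in the choice. In the fit used here, F1 arrays do enter the shared estimate of spread and the filter on low signals. The rule did not compare Cop, ACI, BUF/N and WF with each other, but all had to lie on the same side of F344. Tests are given for F1 and for the differences among these 4 strains. The arrays of the inbred strains did enter the choice, so no p-value that uses them is independent of it. That of F1 against F344, or against the midpoint of its parents, rests in part on the F344 values that chose the genes. That of F1 against Cop or another inbred strain rests in part on values that entered the choice. Tests among the 4 strains use such values throughout.

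RNA from normal mammary gland was measured on 1 Affymetrix rat array per sample, and a signal is the brightness of a probe set on a linear scale after each array was brought to the same trimmed mean. The inbred strains F344, Cop, ACI, BUF/N and WF had 5 arrays each, as did the offspring of a cross of Cop with F344, labelled F1, and 1 pooled array was labelled for Cop and 1 for F344. No treatment, allele, age, sex or stage of the oestrous cycle is given for any group, and the labels do not say which animals went into a pool. Arrays are named by group and sample number, so that F1 2 is the second F1 sample. Whether samples came from separate animals is not stated, so p-values measure only how these samples vary, which may be technical.

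The 6 genes belong to different cell functions. Grifin is a relative of the galectins that is known from the fibre cells of the eye lens, where it does not bind sugars as galectins do. Paqr3 is a Golgi membrane protein that holds Raf kinases at the Golgi and so dampens ERK signalling, and it also anchors the sterol sensor SCAP there. Ptgis is prostacyclin synthase, an enzyme of the cytochrome P450 family best known from blood vessel walls. Kif13a is a kinesin motor that moves vesicles of the AP-1 adaptor and tubules of recycling endosomes along microtubules. Azi2, also called Nap1, is an adaptor of the kinase TBK1 in the response to viruses. Tmtc3 is an enzyme of the endoplasmic reticulum that adds mannose to cadherins. Cop is known for its resistance to chemically induced mammary cancer, and the study's title names genetic susceptibility to such cancers as its question.

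The genes lie on 6 different chromosomes, which are 12 for Grifin, 14 for Paqr3, 3 for Ptgis, 17 for Kif13a, 8 for Azi2 and 7 for Tmtc3. The 250 bases before the gene start are shown for 4 of them from RefSeq (build GRCr8), each on the plus strand. Grifin and Paqr3 are shown as genes with high F344 signals, and Kif13a and Azi2 as genes with low ones. The signals of Kif13a and Azi2 moved together over the arrays (r = 0.78), which their choice by low F344 signals favours. Within groups their r was 0.11. The windows are chr12:19194579-19194828 for Grifin, chr14:12766355-12766604 for Paqr3, chr17:17972603-17972852 for Kif13a and chr8:126651018-126651267 for Azi2. Capitals mark GC boxes, searched as GGGCGG on both strands, and the cAMP response element, searched as TGACGTCA.
Grifin: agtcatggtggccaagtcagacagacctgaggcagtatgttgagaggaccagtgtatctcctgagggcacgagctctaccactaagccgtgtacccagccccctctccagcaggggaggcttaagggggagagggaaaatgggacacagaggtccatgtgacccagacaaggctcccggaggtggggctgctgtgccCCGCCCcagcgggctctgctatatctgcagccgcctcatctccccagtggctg
Paqr3: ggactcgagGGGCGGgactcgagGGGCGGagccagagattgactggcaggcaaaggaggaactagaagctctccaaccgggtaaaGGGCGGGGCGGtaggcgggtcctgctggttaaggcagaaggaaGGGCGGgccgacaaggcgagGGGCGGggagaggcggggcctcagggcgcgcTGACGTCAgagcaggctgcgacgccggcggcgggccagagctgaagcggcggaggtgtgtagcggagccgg
Kif13a: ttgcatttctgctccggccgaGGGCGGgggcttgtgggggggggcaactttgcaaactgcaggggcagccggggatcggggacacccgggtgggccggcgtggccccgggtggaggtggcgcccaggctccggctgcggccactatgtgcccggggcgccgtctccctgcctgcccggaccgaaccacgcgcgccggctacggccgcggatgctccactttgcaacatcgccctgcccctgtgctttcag
Azi2: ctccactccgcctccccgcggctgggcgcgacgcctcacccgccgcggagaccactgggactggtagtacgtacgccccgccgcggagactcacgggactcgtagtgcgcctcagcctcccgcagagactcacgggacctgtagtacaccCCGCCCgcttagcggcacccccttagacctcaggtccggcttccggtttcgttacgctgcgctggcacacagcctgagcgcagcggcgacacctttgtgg

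The Paqr3 window held 6 GC boxes, 2 of them sharing 1 base, and 1 cAMP response element. The windows of Grifin, Kif13a, Azi2 and Tmtc3 held 1 GC box each. Among 33469 windows of the same length, 30.5% held a GC box and 1.6% the cAMP response element. The letters TATAAA, also searched on both strands, were in none of the 5 member windows matched and in 12.9% of all windows. The same held for the letters CCAAT, which were in 34.0% of all windows, and for the E-box CACGTG, which was in 5.6%. The number of CG dinucleotides was 6 for Grifin, 25 for Paqr3, 25 for Kif13a, 30 for Azi2 and 15 for Tmtc3, against a median of 5 over all windows. The reference comes from the strain BN, which is none of the strains studied, and a match describes these letters only.

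Before the values, 4 arrays need naming. The median correlation with the rest of the F1 group was 0.877 for F1 2 and 0.885 for F1 3, and ACI 2 and ACI 5 had the highest array medians (lowest and highest of all arrays 65.8 and 102.1). F1 results are given with all arrays and without these 4. Markers of mammary epithelium were present throughout, and none of 7 luminal markers was at the floor of the scale on all arrays. Their summed signal was 2275 to 4500 in Cop, which did not overlap F1 (4906 to 7833), and 4360 to 6168 in F344. The summed signal of 6 milk protein genes was 17093 to 35833 in F1, above all arrays of F344 (6851 to 10076) and Cop (4514 to 11043). That of 11 skeletal muscle markers was 5331 to 27823 in F344 and 277 to 3466 in F1, with 592 to 25056 in Cop, 1887 to 13164 in ACI, 661 to 6939 in BUF/N and 595 to 9629 in WF. These markers moved with the groups that the F1 and F344 results compare, and their part in those results was not tested. In whole tissue, fewer cells of a type and less RNA per cell cannot be told apart.

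All 6 genes had signals above the floor of 18.3 on all 30 single-sample arrays, the lowest being 38.9, and all 6 passed the filter on low signals. A probe set counted as apart in F344 when its adjusted p was under 0.05 against Cop, ACI, BUF/N and WF one by one, with 1 sign throughout, and 25 of 5040 tested probe sets (0.496%) were so, 7 of them higher and 18 lower. Of the 6 genes, 3 were higher in F344 (Grifin, Paqr3, Ptgis) and 3 lower (Kif13a, Azi2, Tmtc3). On all 6 the F344 arrays did not overlap the 20 arrays of the other inbred strains, as on 0.675% of the tested probe sets. Nothing is read from this, since the genes were chosen for F344 signals apart from those of these strains. Near the limit of the rule, Tmtc3 was the last of the 25 to pass, with a largest adjusted p of 0.0448 (against WF), and the next outside were an unnamed probe set at 0.0588 and Hk2 at 0.0593.

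**Figure D1:**
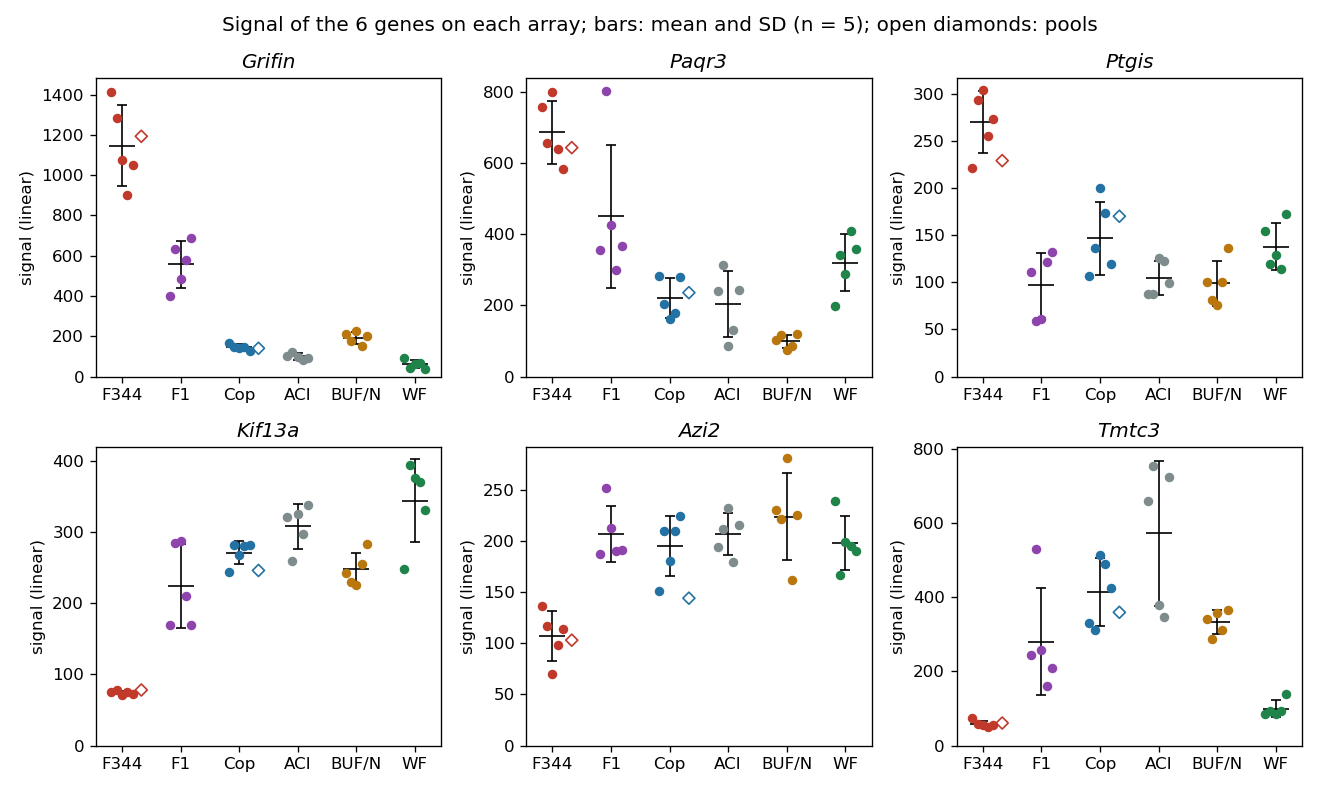
Linear signal of each gene (vertical axis) on every array by group (horizontal axis), where points are single-sample arrays, bars the mean and SD of 5 arrays, and open diamonds the Cop and F344 pools. The 5 F344 arrays stand apart from all Cop, ACI, BUF/N and WF arrays in each panel, and on Tmtc3 the WF arrays (83.7 to 140.2) come nearest to F344 (51.3 to 73.6).

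Grifin (probe set AF082160_at) had the widest gap. Its signals in F344 were 1412.2, 1282.6, 1076.4, 903.8 and 1051.7, with a mean of 1145 ± 201 (SD, n = 5). In Cop they were 168.3, 148.9, 139.4, 147.6 and 126.7 (146 ± 15.2), in ACI 102.3, 123.2, 95.9, 82.2 and 94.4 (99.6 ± 15.1), and in BUF/N 209.9, 177.8, 226.9, 149.5 and 202.8 (193 ± 30.2). In WF they were 92.7, 44.8, 63.6, 67.7 and 38.9 (61.5 ± 21.2), the lowest of the 6 groups. The lowest F344 array was thus far above the highest array of any other inbred strain, and the geometric mean of F344 was 5.91-fold that of BUF/N and 19.3-fold that of WF. The pools read 1193.3 for F344 and 140.3 for Cop, each within the range of its own strain's samples and 8.51-fold apart.

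The order of Grifin in the other 4 strains was BUF/N, Cop, ACI and WF, and these strains differed among themselves (limma F = 30.03, adjusted p = 4.73e-07, where 26.4% of the tested probe sets passed the same test). WF was 3.26-fold below BUF/N (adjusted p = 3.4e-07, with 2.22% of probe sets called for that pair) and 2.48-fold below Cop (adjusted p = 1.63e-05, 12.8% called). Neighbours in the order did not all separate: BUF/N and Cop gave an adjusted p of 0.132 and Cop and ACI of 0.0674 (7.58% called), while ACI and WF gave 0.0131.

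In the F1 hybrid, Grifin signals were 401, 632.3, 483.4, 578.2 and 689.6 (557 ± 116), between both parents on all 5 arrays. F1 was 3.76-fold above Cop (log2 difference 1.91, SE 0.19, adjusted p = 9e-08, with 26.3% of tested probe sets called between F1 and Cop). It was 2.07-fold below F344 (-1.05, SE 0.19, adjusted p = 0.00019, with 31.7% called between F1 and F344). Without the 4 arrays named above these differences were 1.90 (adjusted p = 5.67e-06) and -1.06 (0.00156). On a scale where the F344 mean is 0 and the Cop mean is 1, F1 stood at 0.35 in log2 signals and at 0.589 in linear signals. F1 lay above the log2 midpoint of its parents by 0.43 (SE 0.17, adjusted p = 0.0428, with 35.2% called for this contrast), and it lost this call without the 4 arrays (0.42, adjusted p = 0.123). In linear signals F1 differed from the midpoint of 645.7 by -88.9 (SE 68.6), so the sign of this departure depends on the scale.

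Paqr3 (probe set rc_AI071866_s_at, a design whose probes may match more than 1 transcript) read 758, 656.1, 799.4, 640.4 and 582.8 in F344 (687 ± 89.0). WF came next with 199.7, 342.2, 288.7, 409.8 and 359.6 (320 ± 80), then Cop with 283.6, 205.1, 160.8, 177.4 and 279.2 (221 ± 57.2) and ACI with 241.7, 314.5, 86.9, 129.7 and 242.7 (203 ± 92.7). BUF/N was lowest with 101.5, 116.3, 75.7, 84.9 and 118.3 (99.3 ± 18.8). The highest inbred array outside F344 was WF 4 at 409.8, below all F344 arrays, and the F344 geometric mean was 2.20-fold that of WF and 6.98-fold that of BUF/N. The pools read 644.1 for F344 and 236 for Cop, both within their samples' ranges.

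Paqr3 differed among Cop, ACI, BUF/N and WF (F = 12.5, adjusted p = 0.000373). BUF/N lay 3.18-fold below WF (adjusted p = 0.000238), 2.20-fold below Cop (0.00372, with 23.3% of probe sets called for that pair) and 1.88-fold below ACI (0.0272, 13.6% called), while WF, Cop and ACI gave adjusted p of 0.1 or more between each other. In F1 the signals were 356, 802.6, 425.7, 300 and 368.1 (450.5 ± 202). F1 2 lay above every F344 array and the other 4 F1 arrays lay between both parents. F1 was 1.96-fold above Cop (log2 difference 0.97, SE 0.28, adjusted p = 0.0105), and without F1 2, F1 3, ACI 2 and ACI 5 the difference was 0.66 (adjusted p = 0.0685). Against F344 it was -0.69 (SE 0.28, adjusted p = 0.0564), and it passed without F1 2 alone (-0.92, adjusted p = 0.0142) and without the 4 arrays (-1.01, adjusted p = 0.00742). F1 stood at 0.42 between F344 and Cop in log2 signals and at 0.508 in linear ones, and its departure from the midpoint was 0.14 (SE 0.24, adjusted p = 0.684).

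Ptgis (probe set U53855_at) read 221.3, 293.8, 304.1, 255.7 and 273.6 in F344 (269.7 ± 32.9). Cop gave 106.2, 136.1, 199.7, 173.1 and 119.4 (146.9 ± 38.7), WF 154.4, 119.3, 129.1, 114.4 and 172.2 (137.9 ± 24.6), ACI 87.8, 87.4, 125.3, 122.6 and 99.6 (104.5 ± 18.4), and BUF/N 100.5, 80.9, 75.7, 99.9 and 136.6 (98.7 ± 23.9). F344 was apart by a narrow margin, as Cop 3 at 199.7 came close to the lowest F344 array, and the F344 geometric mean was 1.88-fold that of Cop and 2.78-fold that of BUF/N. The gap between the pools was smaller, at 229.1 for F344 and 170.1 for Cop (1.35-fold). The other 4 strains did not pass the test among themselves (F = 3.29, adjusted p = 0.1). They did with quantile normalization (adjusted p = 0.0206), with centring on the median (0.0223), with the pools added (0.0467) and without the 4 named arrays (0.0466).

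In F1, Ptgis did not lie between the means of the parents. Its signals were 110.4, 59.1, 61.1, 121.2 and 132.5 (96.9 ± 34.5), all below the F344 arrays and overlapping Cop, with F1 2 and F1 3 below every other array of the series on this gene. F1 was 2.93-fold below F344 (log2 difference -1.55, SE 0.22, adjusted p = 1.05e-05) and 1.56-fold below Cop (-0.64, SE 0.22, adjusted p = 0.0304), and it differed from the log2 midpoint of its parents by -1.10 (SE 0.19, adjusted p = 8.59e-05). Without the 4 arrays the difference from F344 was -1.15 (adjusted p = 0.000515) and that from the midpoint -0.69 (0.00822), while that from Cop was -0.24 (0.435) and no longer passed. The position of F1 was 1.71 in log2 signals and 1.41 in linear ones, and 1.26 and 1.21 without F1 2 and F1 3. The F1 mean thus stood beyond the Cop mean, away from F344, each time. Endothelial markers, 5 of 9 measured, summed to 588 to 811 in F344, 570 to 876 in Cop and 369 to 653 in F1. Basal and smooth muscle markers, 8 of 9 measured, summed to 6873 to 8265 in F344, 4965 to 8708 in Cop and 11237 to 13505 in F1. No marker of either list was at the floor on all arrays, and the part of these cells in the Ptgis result was not tested.

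Kif13a (probe set rc_H31990_at) was low and even in F344, with signals of 75.8, 78.3, 71.7, 74.6 and 72.4 (74.6 ± 2.66). It read 243.6, 282, 267.9, 280.2 and 281.7 in Cop (271 ± 16.4), 321.4, 259, 326, 296.8 and 338.5 in ACI (308 ± 31.5), 243.2, 229.6, 225.4, 255.6 and 283.8 in BUF/N (247.5 ± 23.5), and 247.9, 394.7, 376.1, 370.5 and 330.7 in WF (343.98 ± 58.6). The other 4 strains overlapped each other, did not pass the test among themselves (F = 3.72, adjusted p = 0.0728) and lay 3.31-fold (BUF/N) to 4.56-fold (WF) above F344. Without WF 1, the lowest WF array, the test among the 4 strains passed (F = 5.93, adjusted p = 0.0157). It also passed with array weights (adjusted p = 0.0022), without the 4 named arrays (0.0129), with the pools added (0.0418) and with only the groups compared (0.0441). The pools read 78.1 for F344 and 246.1 for Cop.

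In F1, Kif13a signals were 170.1, 285, 287.4, 209.5 and 170 (224 ± 58.7), in which F1 2 and F1 3 lay above every Cop array and the other 3 below all of them. F1 was 2.93-fold above F344 (log2 difference 1.55, SE 0.15, adjusted p = 4.75e-08) and stood 0.62 above the log2 midpoint (SE 0.13, adjusted p = 0.000549). Against Cop the difference was -0.31 (SE 0.15, adjusted p = 0.123). Without F1 2, F1 3, ACI 2 and ACI 5, F1 was below Cop (-0.57, adjusted p = 0.00323), above F344 (1.29, 1.02e-06) and above the midpoint (0.36, 0.0317). Its position was 0.83 in log2 signals and 0.762 in linear ones, and 0.69 and 0.553 without F1 2 and F1 3. In linear signals F1 differed from the midpoint of 172.8 by 51.55 (SE 26.5).

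Tmtc3 (probe set rc_AA893172_at) had the lowest signals in F344, at 73.6, 57.2, 54.7, 51.3 and 55.4 (58.4 ± 8.74). WF followed with 84.6, 93.1, 83.7, 94.2 and 140.2 (99.2 ± 23.4), above F344 by 1.68-fold in geometric means. The remaining strains were well above both. BUF/N read 340.6, 288.5, 358.5, 311.7 and 365 (333 ± 32.3), Cop 330.5, 310.2, 513.4, 490.4 and 424.8 (414 ± 91.6), and ACI 658.1, 754.4, 377.8, 346.4 and 725 (572 ± 195). The pools read 60.7 for F344 and 359.1 for Cop, a 5.92-fold gap.

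The other 4 strains differed on Tmtc3 among themselves (F = 39.7, adjusted p = 3.57e-08), and WF was the strain that stood out. WF was 4.17-fold below Cop (adjusted p = 8.84e-07), 5.58-fold below ACI (4.01e-08, with 7.18% of probe sets called for that pair) and 3.41-fold below BUF/N (1.51e-05), while Cop, ACI and BUF/N gave adjusted p of 0.0503 or more between each other. Low Tmtc3 was therefore shared in part by WF. In F1 the signals were 244.6, 529.6, 257.1, 159.2 and 208.7 (280 ± 145), all above F344, with F1 2 above every Cop array and the other 4 below all of them. F1 was 4.42-fold above F344 (log2 difference 2.14, SE 0.24, adjusted p = 6.52e-07) and 1.58-fold below Cop (-0.66, SE 0.24, adjusted p = 0.0445). Without the 4 arrays these were 1.79 (4.92e-06) and -1.01 (0.00129). The call against Cop was lost in 13 of 43 alternatives, among them no filter (adjusted p = 0.0796), quantile normalization (0.054), centring on the median (0.0813), only the groups compared (0.142) and leaving out F1 4 (0.138). F1 stood at 0.76 in log2 and 0.623 in linear signals. It lay 0.74 above the log2 midpoint (SE 0.21, adjusted p = 0.00766). This last call was lost without F1 2 (0.48, adjusted p = 0.0642) and without the 4 arrays (0.39, adjusted p = 0.135). In linear signals F1 differed from the midpoint of 236.1 by 43.6 (SE 67.9), less than the SE, so the size of this departure depends on the scale.

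Azi2 (probe set rc_AA893602_at) was the gene low in F344 with the smallest difference from the mean of the other 4 strains (-0.96 in log2 signals), although WF came nearer to F344 on Tmtc3. In F344 it read 136.6, 116.8, 69.8, 98.6 and 114.3 (107 ± 24.9). The other strains lay close together, with 150.8, 209.6, 180.5, 209.8 and 224.3 in Cop (195 ± 29.4), 194.1, 211.9, 232.6, 180.1 and 216.1 in ACI (207 ± 20.3), 230.8, 221.3, 281.2, 161.6 and 225.6 in BUF/N (224 ± 42.5), and 239.6, 166.9, 198.9, 195.4 and 190.6 in WF (198 ± 26.3). Their ranges overlapped, the test among them did not pass (F = 0.537, adjusted p = 0.745), and they lay 1.85-fold (Cop) to 2.11-fold (BUF/N) above F344. The Cop pool read 144.2, just below the 5 Cop samples, and the F344 pool 103.1, which left 1.40-fold between the pools.

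In F1, Azi2 signals were 187.3, 252.5, 212.6, 190.4 and 191.8 (207 ± 27.4), all above F344 and within the reach of Cop except for F1 2, which was above it. F1 was 1.96-fold above F344 (log2 difference 0.97, SE 0.17, adjusted p = 9.11e-05) and differed from Cop by 0.090 (SE 0.17, adjusted p = 0.727). It stood 0.53 above the midpoint (SE 0.14, adjusted p = 0.00496). Without the 4 arrays the difference from F344 was 0.86 (0.00246), that from Cop -0.025 (0.945) and that from the midpoint 0.42 (0.0726), which no longer passed. The position was 1.10 in log2 signals and 1.14 in linear ones, and 0.97 and 0.941 without F1 2 and F1 3.

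Set side by side, F1 differed from F344 on 5 of the 6 genes, where 31.7% of tested probe sets were called. Paqr3 was the one that did not pass. On those 5 the F1 and F344 arrays did not overlap (17.9% of tested probe sets had no overlap). Nothing is read from these counts, since the genes were chosen for F344 values far from those of other strains. F1 differed from Cop on 4 of 6 genes, where 26.3% of tested probe sets were called. It was higher on Grifin and Paqr3 and lower on Ptgis and Tmtc3, with no overlap on Grifin and Paqr3 (13.1% of probe sets). The calls on Ptgis and Tmtc3 were lost with quantile normalization, with centring on the median and with only the groups compared. Without the 4 named arrays Paqr3 (adjusted p = 0.0685) and Ptgis (0.435) no longer passed by limma, while Kif13a did (0.00323). These tests share the F1 arrays. The mean of F1 lay between those of its parents on 4 of 6 genes, and outside them, beyond the Cop mean, on Ptgis and Azi2. Over all tested probe sets, of which 3.45% were called between Cop and F344, 17.3% had F1 between them. The 4 genes with F1 between the parents included 2 of each direction, Grifin and Paqr3 nearer to F344 in log2 signals and Kif13a and Tmtc3 nearer to Cop. These sides depended on scale and arrays: in linear signals Grifin (0.589) and Paqr3 (0.508) lay on the Cop side of the midpoint, and without F1 2 and F1 3 Paqr3 moved to the Cop side in log2 signals (0.60), Tmtc3 to the F344 side in linear signals (0.410, against 0.64 in log2) and Azi2 to within its parents (0.97).

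**Figure D2:**
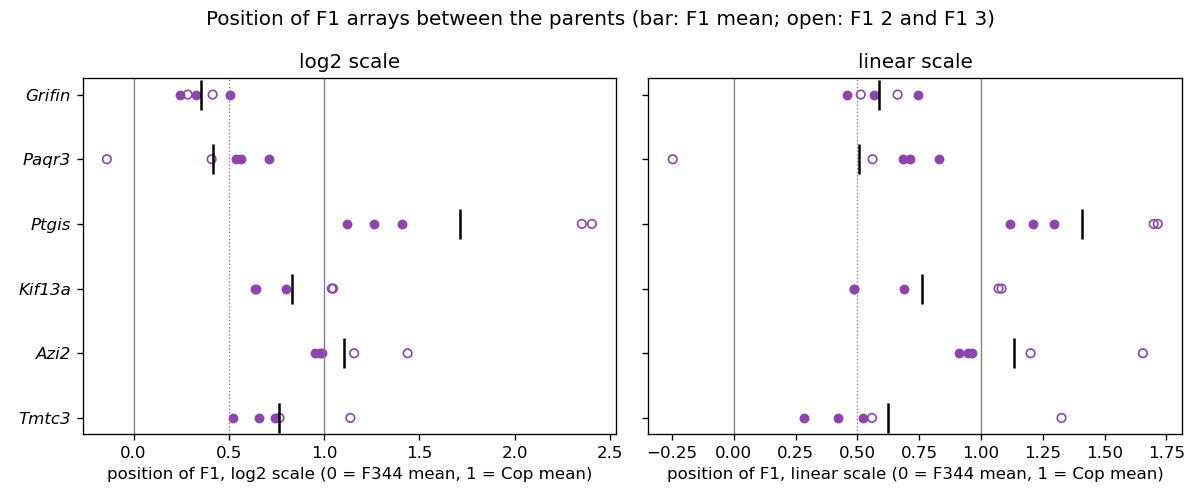
Position of each F1 array between its parents for the 6 genes, where 0 is the F344 mean and 1 the Cop mean, in log2 signals (left) and linear signals (right); bars are F1 means and open circles are F1 2 and F1 3. Grifin arrays lie between 0.24 and 0.51 in log2 signals, all Ptgis arrays lie beyond the Cop mean (1.12 to 2.40), and F1 2 lies beyond F344 on Paqr3 (-0.14).

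Against the 3 strains that are not its parents, F1 was called on 4 genes against ACI (29.1% of probe sets called), on 2 against BUF/N (17.3%) and on 3 against WF (15.2%). Grifin was higher in F1 each time, by 5.54-fold, 2.86-fold and 9.32-fold (adjusted p = 2.67e-10, 3e-06 and 1.73e-13). Paqr3 was higher than in ACI by 2.30-fold (0.00207) and than in BUF/N by 4.31-fold (6.18e-06). Kif13a was lower than in ACI by 1.41-fold (0.0142) and than in WF by 1.56-fold (0.00402), and Tmtc3 was lower than in ACI by 2.12-fold (0.00172) and higher than in WF by 2.63-fold (0.000271). Ptgis and Azi2 passed against none of the 3, with adjusted p of 0.0733 or more. Without the 4 named arrays these 9 calls held, with adjusted p of 0.0054 or less. Kif13a (-0.44, adjusted p = 0.0328) and Tmtc3 (-0.72, adjusted p = 0.0263) then also passed as lower in F1 than in BUF/N, and Ptgis and Azi2 again passed against none.

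The genes whose log2 signals followed each of the 6 most closely over the 30 arrays are given as a description. Kif13a was followed by Gnai2, a subunit of inhibitory G proteins (Pearson r = 0.80), by Azi2 (0.78) and by Rbpms, an RNA-binding protein (0.74). Gnai2 was itself among the 25 probe sets apart in F344, with 1008 ± 109 (SD, n = 5) against 1130 to 2010 on the other inbred arrays. Its r with Kif13a thus rests in part on the F344 gap that both share. Kif13a and Azi2 followed each other between groups more than within them, since their r was 0.11 after the group means were taken off. Azi2 was followed most closely by the splicing factor gene Rbm39 (0.83), the vasopressin gene Avp (0.80) and the RNA cleavage factor gene Cpsf4 (0.79).

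Paqr3 was followed by RT1-Ba, an alpha chain of the class II molecules that present antigen, with r = 0.89 over the arrays and 0.98 over the 6 group means. RT1-Db1, a beta chain of the same class that was also among the 25 apart in F344, came next (0.76). Ggh, an enzyme of folate breakdown, followed (0.76). Paqr3 lies on chromosome 14 and both RT1 genes on 20. RT1-Ba read 1779 ± 398 (SD, n = 5) in F344 and 343 to 1692 on the other inbred arrays. Grifin was followed by Il6st (0.74), the shared receptor chain of interleukin 6 signalling, by the glutathione transferase Gstt2 (0.74) and by Akr1c3 (0.73), an aldo-keto reductase with 2 probe sets among the 25 apart in F344.

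Ptgis was followed by the sulfotransferase Sult1a1 (0.79), by the ubiquitin ligase Marchf8 (0.78) and by the phospholipase Plcd1 (0.77). Tmtc3 was followed by Ehd4, a protein of endosome recycling (0.77), by the growth factor gene Bmp3 (0.77) and by Cwc25, a splicing factor (0.74). All these points share the arrays. After the group means were taken off, the correlation was 0.83 for Ptgis with Sult1a1, 0.70 for Azi2 with Rbm39, 0.54 for Kif13a with Gnai2 and 0.51 for Paqr3 with RT1-Ba, while it was -0.038 to 0.063 for Grifin with its 3 genes and 0.0016 for Paqr3 with RT1-Db1. Among the 6 genes themselves, Paqr3 and Tmtc3 had r = -0.56 over all arrays but 0.65 within groups, where F1 2 and ACI 1, ACI 2 and ACI 5 were high on both genes.

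**Figure D3:**
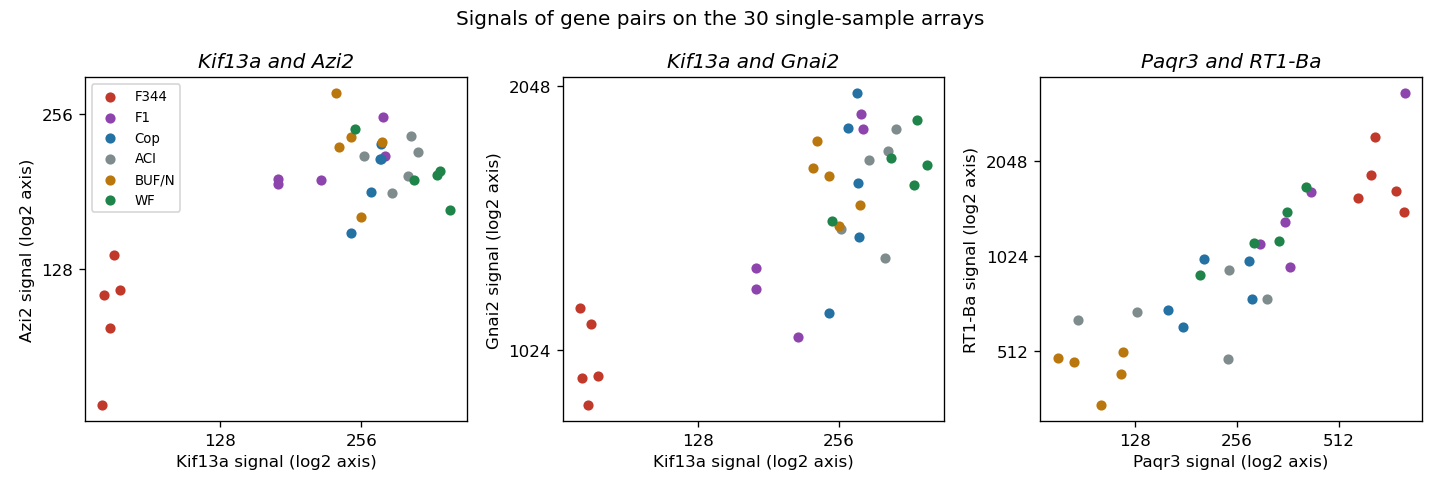
Signals of 3 gene pairs on the 30 single-sample arrays, both axes on a log2 scale and colours by group. The F344 arrays sit low on both axes for Kif13a with Azi2 and with Gnai2 (r = 0.78 and 0.80). Kif13a and Azi2 were chosen for low F344 signals, which favours this r. Paqr3 and RT1-Ba rise together across all groups (r = 0.89).

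The families and pathways of the 6 genes were then read in F344 against the mean of the other 4 inbred strains, with the 6 genes left out. For that contrast 12.3% of the tested probe sets were called, 222 higher and 399 lower, with a median log2 difference of -0.051. Over 9 lists, 68 genes were tested and 12 called (17.6%), with a median of -0.10. The count depends on single F344 arrays, as it fell to between 4 and 8 without any one of them. Mip and Cbr1 were the 2 genes called under all 43 alternatives.

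For Grifin, the galectins (7 measured, 6 tested) had 0 higher and 1 lower, Lgals7, a galectin of stratified epithelia (-0.85, adjusted p = 0.0278). The median of the galectins was -0.21. Lgals1 and Lgals3, the widely expressed galectins, had differences of -0.081 and 0.076. Of 6 lens fibre genes tested, 1 was higher, the small heat shock protein gene Cryab (0.68, SE 0.22, adjusted p = 0.0388), which muscle also makes, and 1 lower, the lens water channel gene Mip (-1.03, SE 0.20, adjusted p = 0.00107). Cryab read 311 ± 117 (SD, n = 5) in F344, and the other strain means ran from 105 to 354, the highest of them above F344. Skeletal muscle markers had a mean log2 signal of 9.92 in F344 and of 6.66 to 8.63 in the other 4 strains, and their part in the Cryab result was not tested. Mip read 76.4 ± 32.7 (SD, n = 5) in F344 against strain means of 122 to 160. Grifin itself had a difference of 3.33.

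For Kif13a, 2 of 3 tested kinesin motor and light chain genes were lower, Kif3c (-0.41, adjusted p = 0.0222) and Klc1 (-0.39, 0.0276), and none was higher. F344 was below every other strain mean on Kif3c (129 against 139 or more). On Klc1 it was not (94.0, with the lowest other strain mean at 93.0). Of 8 genes of the AP-1 adaptor and its endosomal cargo, 1 was lower, the adaptor subunit Ap1s1 (-0.41, 0.0181), and the median was 0.061. Ap1s1 read 245 in F344, above the lowest other strain mean of 232. For Tmtc3, 1 of 3 tested genes of O-mannosylation was lower, Mpi (-0.45, adjusted p = 0.0499), which supplies mannose phosphate, and its call held in 16 of 43 alternatives. For Azi2, none of 12 tested genes of TBK1, NF-kappaB and the interferon response was called by limma, while 4 had an unadjusted p under 0.05. Tbk1 itself had a difference of 0.13 (SE 0.24), and Gbp2, an interferon-induced GTPase, had the largest (0.73, adjusted p = 0.074).

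For Paqr3, 1 of 14 tested genes of Ras, Raf, MEK and ERK was higher, the phosphatase gene Dusp1 (0.68, adjusted p = 0.0301), and none was lower. In the PAQR family and SCAP sterol sensing list, 1 of 4 was lower, the membrane progestin receptor gene Paqr7 (-0.65, 0.0231). For Ptgis, 2 of 12 tested genes of prostanoid synthesis, receptors and breakdown were higher and 1 lower, with a median of -0.071. Cbr1, a carbonyl reductase that acts on prostaglandins, was higher by 1.62 (SE 0.25, adjusted p = 5.13e-05), with 1793 ± 630 (SD, n = 5) in F344. The strain means of Cbr1 elsewhere ran from 221 to 2134, the highest of them above F344. Ptgs1, a cyclooxygenase that feeds Ptgis, was higher by 0.49 (0.0334), and the prostaglandin transporter gene Slco2a1 was lower (-0.52, 0.0173).

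**Figure D4:**
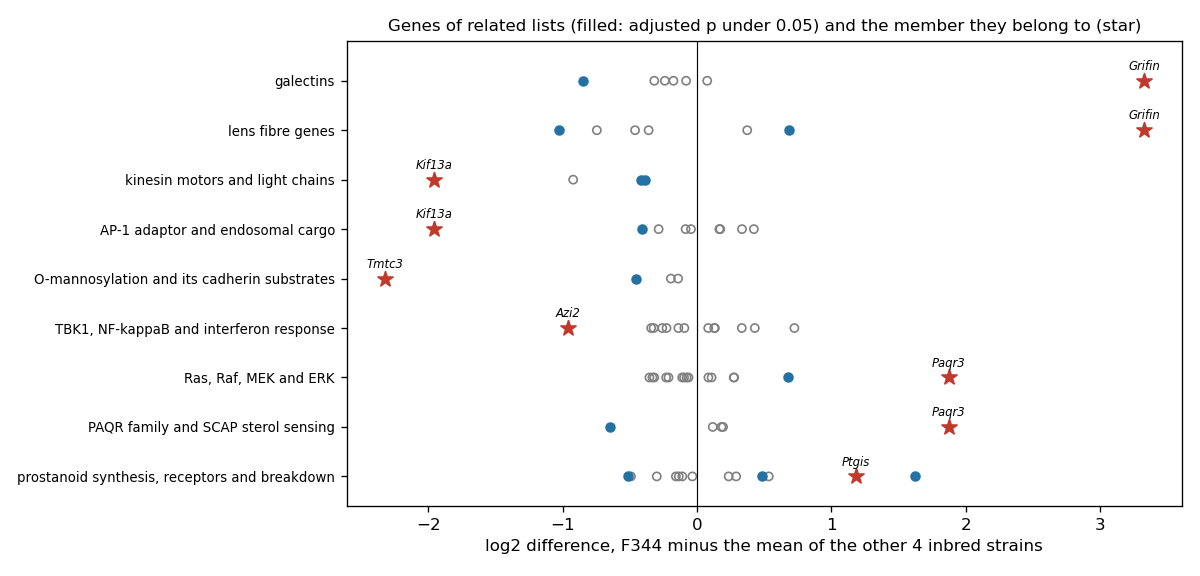
Log2 difference of F344 from the mean of the other 4 inbred strains (horizontal axis) for each tested gene of 9 lists (rows), where filled points have an adjusted p under 0.05 and stars are the 6 genes beside the lists they belong to. The stars, which were chosen for a difference on this contrast, run from -2.32 for Tmtc3 to 3.33 for Grifin, and the tested list genes from -1.03 for Mip to 1.62 for Cbr1.

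Position on the chromosome was not part of the choice. Of the 60 genes within 5 places on either side of the 6 genes in the RefSeq order (GRCr8), 8 were on the array and 4 were tested, and none was called by limma (0 with an unadjusted p under 0.05). Eif3b near Grifin had a log2 difference of -0.19 (SE 0.13, adjusted p = 0.358) and Nup153 near Kif13a of -0.25 (SE 0.13, adjusted p = 0.196). Near Tmtc3, Dusp6 had -0.23 (SE 0.17, adjusted p = 0.383) and Kitlg -0.11 (SE 0.22, adjusted p = 0.79). The other 3 genes had no tested neighbour.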

How the data were processed

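Per the labels, RNA was extracted from mammary gland with a column kit, precipitated with lithium chloride and made into biotinylated cRNA from 5 µg of total RNA. The deposited values are linear signals from Affymetrix Microarray Suite 5.0, per the labels, at 8799 probe sets (59 of them controls) on 32 arrays. The build and the probe sequences are not given in the sources used here.

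All arrays had trimmed means of 250.3 to 250.4, so scaling factors were 0.9997 to 1.0002. Signals below the 25th percentile (18.3) were set to it and log2 transformed. The 5040 probe sets above the median of 78.4 on at least 5 of 30 arrays went into 1 model over 6 groups (limma 3.58.1, R 4.3.3) with a variance trend and Benjamini-Hochberg adjustment over all of them at 0.05. Folds are 2 to the power of the fitted log2 difference. Pools stayed out of the fit. The scripts were tested on simulated data. Arrays have no read depth, and precision is limited by their number.

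The 6 genes and the lists were chosen with earlier results of these data known. Named besides them were up to 3 genes of each list with the smallest adjusted p, the 3 closest in correlation and the tested neighbours. Where a gene had several tested probe sets, the one with the highest mean log2 signal was used. Lgals1, Lgals3, Tbk1 and Hk2 were named after their values were seen. Alternatives were other floors, an offset of 50, other filters and scalings, a replicate block, weights per array, a fit without the trend, fits with the pools added or with the compared groups alone, and leaving out each array or the 4 named ones. Sample numbers were not taken as pairs, since 16 of 75 same-numbered pairs of arrays correlated above 0.1 in their deviations from the group means (range -0.45 to 0.40).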

Additional observations from a re-analysis of the deposited data

Results flagged for a closer look

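In groups of 5 arrays, a single array was marked when its gap to the next exceeded 0.71 of the group's range. Of 36 sets (6 genes in 6 groups), 4 had such an array, and chance marks about 1 set in 20.

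Paqr3 on F1 2 read 802.6, against 300 to 425.7 on the other F1 arrays. Tmtc3 on the same array read 529.6, against 159.2 to 257.1. Both genes on F1 2 were thus above all arrays of 1 parent, F344 for Paqr3 and Cop for Tmtc3.

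Tmtc3 was also marked on F344 1, with 73.6 against 51.3 to 57.2 on the other F344 arrays, and on WF 5, with 140.2 against 83.7 to 94.2. The highest F344 array and the lowest WF array (83.7) still did not overlap.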

How the results depend on the processing

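The 24 tests of single genes were repeated under 43 alternatives, 1032 repeats in all, of which 967 kept their direction and side of the threshold, 40 no longer passed, 20 passed only then and 5 changed sign. Tests of F1 against F344 on Grifin, Ptgis, Kif13a, Azi2 and Tmtc3 passed each time. With the replicate block, Grifin against the midpoint no longer passed (adjusted p = 0.0503) and Paqr3 against F344 passed (0.0429). The block changed no other of these 24 calls. The sign changed for Azi2 against Cop without F1 2, F1 3, ACI 2 and ACI 5 (-0.025) and with array weights (-0.027). It changed for Paqr3 against the midpoint without those 4 arrays (-0.17), with array weights (-0.10) and without F1 2 (-0.093, in a range of -0.093 to 0.26 over single arrays left out). Without the 4 arrays, chosen for these contrasts after seeing the data, F1 changed sign for Ptgis against ACI (0.13) and BUF/N (0.33) and for Azi2 against WF (-0.053). In linear signals, an alternative chosen after seeing the data, the midpoint differences were -88.9 for Grifin and -3.85 for Paqr3.

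F1 against Cop called 4 of the genes, 2 with quantile normalization, 2 with centring on the median, 2 with only the groups compared, and 2 to 4 when single arrays were left out (2 without F1 3, Cop 3 or Cop 4). Ptgis against Cop did not pass without F1 2 (adjusted p = 0.117) or F1 3 (0.113), and Tmtc3 against Cop no longer passed in 13 alternatives. F1 against the midpoint called 5 genes, 2 without the 4 arrays and 3 to 5 without single ones (3 without F1 2). Among Cop, ACI, BUF/N and WF 3 genes were called, and 5 with the pools as sixth samples and 5 without the 4 arrays. List genes called numbered 12, 25 with array weights and 4 to 13 without single arrays (6, 4, 5, 8 and 6 without F344 1 to 5).

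Over all probe sets, F1 against Cop called 1325, and 661 with only the groups compared. F1 against F344 called 1596, and 1049 without the 4 arrays. Centring on the median moved the share of higher calls from 50.4% to 62.7% for F1 against Cop and from 49.3% to 60.4% for F1 against the midpoint. With 1 probe set per gene, no second probe set could be set beside any of the 6.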
